A study of Mus musculus with 11 samples.

Results

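The cytosolic ribosomal protein genes encode the proteins of the large and the small ribosomal subunit, named Rpl and Rps. They were taken from the gene table by symbol alone, with no use of measured values, which gave 83 of the 21860 genes. Of these, 51 belonged to the large subunit, including the 3 proteins of the stalk (Rplp0, Rplp1 and Rplp2), and 32 to the small subunit, including the laminin receptor protein Rpsa. They lay on 19 chromosomes. The test was run on 82 of them. Rpl10l, a copy of Rpl10 best known from the testis, was listed at 0 in all 11 libraries and was not tested.

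Most ribosomal proteins are present once in each ribosome (the stalk proteins are an exception), and their mRNAs are usually abundant and translated together. Most of these mRNAs belong to the TOP class, whose members begin with a C and carry a run of pyrimidines through which the growth-sensing kinase mTOR controls their translation. Growing and dividing cells make many ribosomes, and ribosomal protein mRNA is often read beside cell cycle genes for that reason.

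The mRNAs were measured by bulk RNA sequencing in 11 libraries of CD11b-low EpCAM+ cells sorted on day 6 from cultures of mouse bone marrow monocytes, all given GM-CSF at 20 ng/ml. EpCAM is an adhesion protein of Langerhans cells, the phagocytes of the epidermis, and the cultures were made to obtain cells like those derived from monocytes in the skin. Of the 11, 10 received TGFβ (5 ng/ml) with IL-34 (8 µg/ml), signals that favour Langerhans cells. The group TGFβ/IL-34 had nothing more (2 libraries), TGFβ/IL-34/FICZ also had FICZ (2 libraries), TGFβ/IL-34/Jag1 had Jag1 (3 libraries), and both were added in TGFβ/IL-34/Jag1/FICZ (3 libraries). The single library called Jag1 only had GM-CSF and Jag1 without TGFβ and IL-34. FICZ is a ligand of the aryl hydrocarbon receptor, called an agonist by the study and an antagonist in the deposited design text. Jag1, a ligand of Notch receptors, came from OP9 stromal cells made to express it, and the labels describe every sample as a culture with OP9 cells. Nothing in the labels ties replicates to separate animals, so p-values measure the spread between these libraries. In sorted bulk cells, fewer cells of a type and less RNA per cell cannot be told apart. The question addressed was how ribosomal protein mRNA stood in each culture when set against the cell cycle genes, whose levels differed between the groups.

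Values are normalized counts, and the library totals ran from 21.3 M to 27.8 M. Epcam, used for the sort, stood at 657.5 normalized counts in Jag1 only and at 3952 to 14377 in the other libraries. Cd207, which encodes langerin, was at 1366 to 1784 in TGFβ/IL-34/Jag1 and at or below 156.6 elsewhere. The sum of 10 markers of OP9 stroma was 12.8 to 38 in the 4 libraries without Jag1 and 391.1 to 4631 in the 7 with it. Col1a1, the main collagen of stromal cells, was at 0 to 3.84 in the former and at 37.4 to 1345 in the latter. The near absence of these markers without Jag1 goes against the label, and if those cultures had no OP9 cells, Jag1 and the stroma that carries it cannot be told apart. The sum of 8 markers of granulocyte progenitors was 6842 to 11175 in TGFβ/IL-34/Jag1/FICZ and 189.9 to 347.4 in TGFβ/IL-34/Jag1. The sum of 7 markers of mast cells and basophils was 6076 and 6340 in TGFβ/IL-34, 1780 to 2938 with Jag1 and 9211 to 12192 with Jag1 and FICZ. That of 6 general myeloid markers was 498244 to 622877 with Jag1 and 262779 to 327381 with FICZ added. These sums moved with groups compared here, and their part in the results was not tested.

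One library stood apart from all others in its ribosomal protein mRNA. The 83 genes together took 13.1% of all normalized counts in replicate 1 of TGFβ/IL-34/FICZ, against 5.2% to 7.49% in the other 10 libraries. Both subunits were high there, with 7.17% for the large and 5.94% for the small subunit against at most 4.22% and 3.27% elsewhere. Of the 82 tested members, 76 were above every other library, where 25.2% of all 13095 tested genes were. The exceptions were Rpl3l, Rpl7l1, Rpl10, Rpl12, Rpl39l and Rps27.

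That library also differed in genes outside the 83 members, and it did so by transcript length. Copies that the symbol rule does not take up, such as Rpl10-ps3 and Rps27rt, were not removed from these other genes. For each gene the log2 level in a library was set against its mean over the 11 libraries. Among other genes with a canonical transcript of up to 600 bases the median deviation in this library was 1.04 (95 genes), and above 4000 bases it was −0.53 (5189 genes). In the other 10 libraries these medians lay between −0.20 and −0.02 and between −0.01 and 0.11. Ribosomal protein mRNAs are short, with a median transcript of 1096 bases against 3410 for all tested genes. Their own median deviation was 1.28, and that of 47 other short and abundant genes was 1.19. Within the members the deviation ran from 1.23 to 1.35 over the 5 length classes, with no fall toward longer ones. The class above 4000 bases held 3 members. These lengths are of the annotated canonical transcript, which need not be the form present in these cells, so a link to length within the members stays undecided. The mRNAs of mitochondrial ribosomal proteins, which form a separate ribosome, summed to 99048 in this library and to 42576 to 49852 elsewhere. The other library of the same flow cell, replicate 1 of TGFβ/IL-34/Jag1/FICZ, stood at 6.28% for the ribosomal protein genes, within the range of the rest. Replicate 1 of TGFβ/IL-34/FICZ enters the spread of every test over all 11 libraries, so counts of genes that passed are given with and without it.

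**Figure D1:**
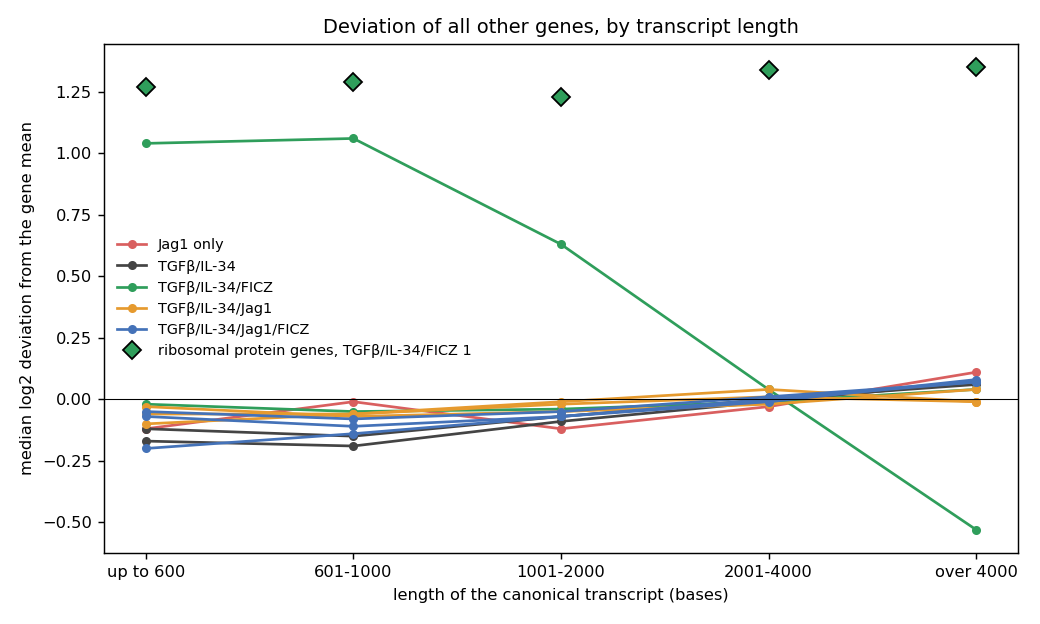
Median log2 deviation from each gene's mean over 11 libraries (vertical axis) by length of the canonical transcript in bases (horizontal axis), with 1 line per library for tested genes outside the ribosomal protein members and diamonds for the members in TGFβ/IL-34/FICZ replicate 1. That library falls from 1.04 in the shortest class to −0.53 in the longest, and the other 10 lines stay between −0.20 and 0.11.

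Of the 83 members, 78 had a mean of at least 1000 normalized counts. The median member stood at 18613 normalized counts and, per kilobase of transcript, at 14671. Per kilobase the highest means were those of Rplp1 (58470), Rpsa (52876) and Rpl13a (49932). Rpsa (chromosome 9, 119956755 to 119962787 in GRCm39) is a small subunit protein also known as a laminin receptor. Its normalized counts were 93472 in Jag1 only, 78001 and 62019 in TGFβ/IL-34, 305588 and 74250 in TGFβ/IL-34/FICZ, 115401, 93187 and 83455 in TGFβ/IL-34/Jag1, and 79355, 72031 and 70453 in TGFβ/IL-34/Jag1/FICZ. All 3 libraries of TGFβ/IL-34/Jag1 were above those of TGFβ/IL-34 and of TGFβ/IL-34/Jag1/FICZ. The 5 members below 1000 were Rpl3l, Rpl5, Rpl10l, Rpl39l and Rps27.

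The spread of the members between libraries came in large part from TGFβ/IL-34/FICZ replicate 1. The SD of log2 values over the 11 libraries had a median of 0.48 among the 80 members with a mean of at least 100, and of 0.24 without TGFβ/IL-34/FICZ replicate 1. Rpl10, Rpl15 and Rps2 varied least, with SDs of 0.27, 0.30 and 0.33. Rps27, Rpl12 and Rplp2 varied most, with SDs of 1.12, 0.75 and 0.67. Without TGFβ/IL-34/FICZ replicate 1, Rplp2 came to 0.24, equal to the median, and Rps27 and Rpl12 stayed at 1.16 and 0.71. Rps27 and Rpl12 thus varied beyond that library, as did Rpl5 (0.51), which encodes a protein that with Rpl11 binds 5S rRNA and can restrain the p53 inhibitor Mdm2. Rpl12 and Rpl5 were also low for members, with means of 1053 and 117.4 per kilobase against a median of 14671. Whether their counts are complete was not tested.

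**Figure D2:**
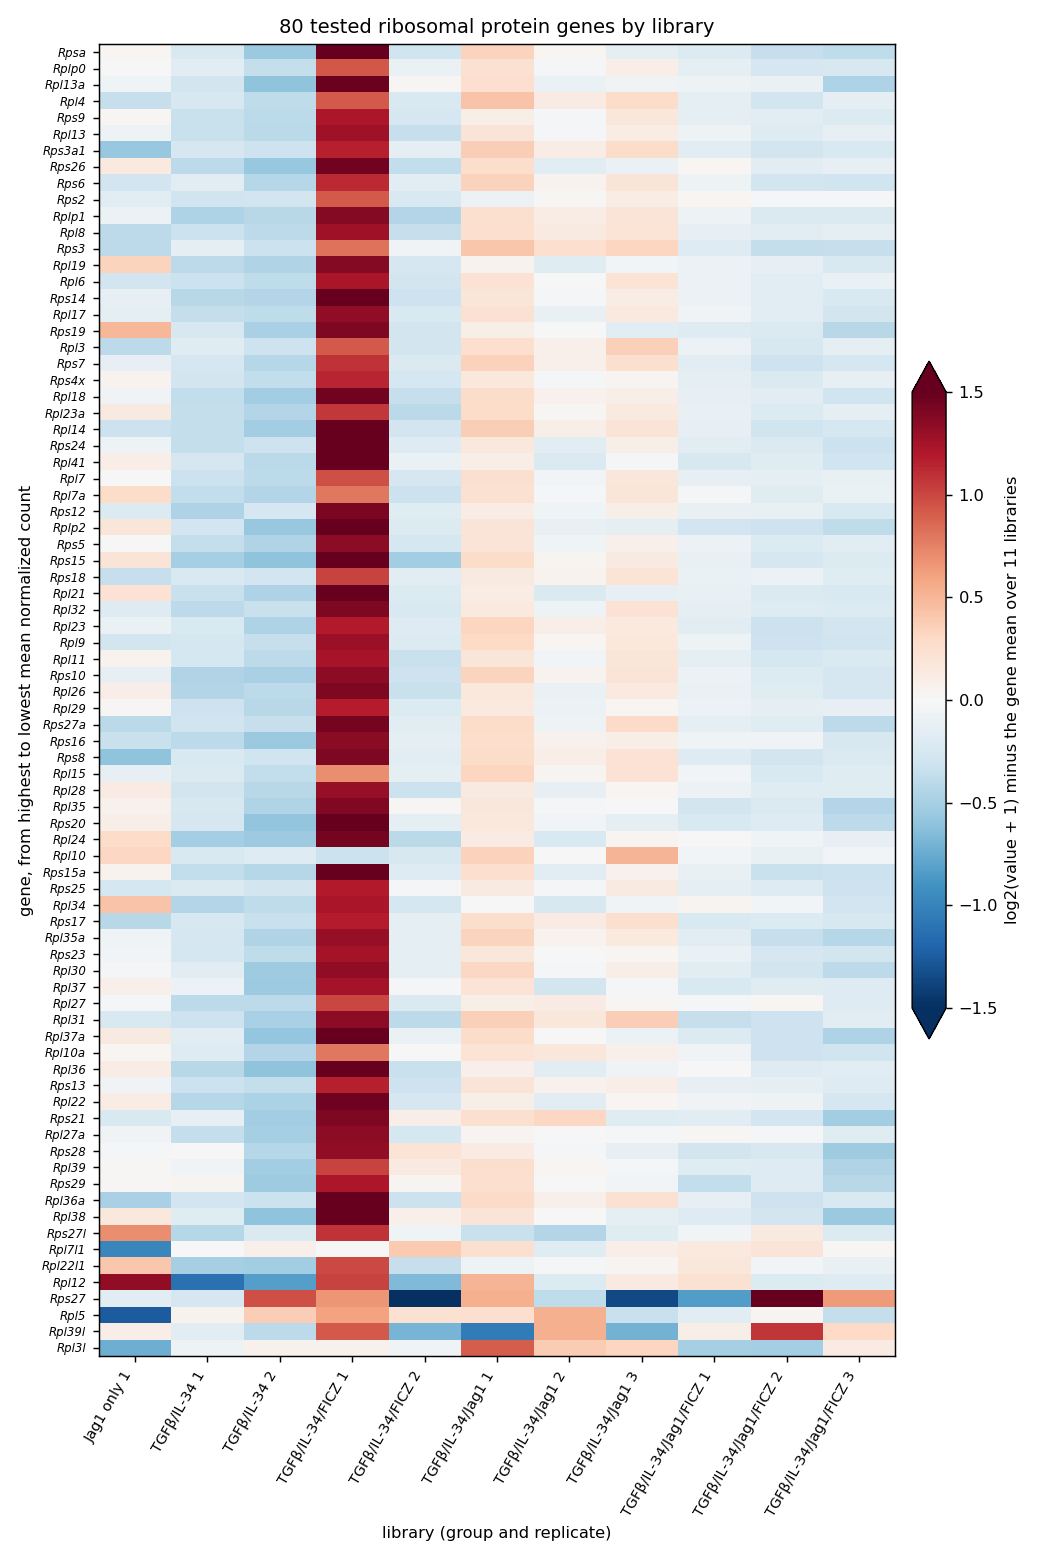
Heat map of 80 of the 82 tested ribosomal protein genes (vertical axis, ordered by mean normalized count) in the 11 libraries (horizontal axis), with the log2 level minus the gene's mean over libraries as colour. TGFβ/IL-34/FICZ replicate 1 is dark red for nearly all genes, the 3 libraries of TGFβ/IL-34/Jag1 are mostly pale red, and those of TGFβ/IL-34 and TGFβ/IL-34/Jag1/FICZ are mostly pale blue.

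The starts of these genes are shown because the pyrimidine run is the feature the class is named for. RefSeq promoter sequence (GRCm38.p6) was found for 63 of the 83 members, and the 15 bases before the annotated start and the 15 from it onward were read. Capitals mark the run of C and T that crosses the start or lies within a few bases of it. In Rpl22l1 and Rpl12 the run begins after the annotated first base, which is a G. Such runs are counted below whether or not they hold the start base. The members shown were picked from those named in the comparisons that follow. Others named there are left out, such as Rps15 (run of 1 base) and Rpl27a (run of 19 bases). The counts over all 63 members are therefore the ones to read.
Rps3 (chr7:99483695-99483724, minus strand): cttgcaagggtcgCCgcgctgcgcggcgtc
Rpl31 (chr1:39367836-39367865, plus strand): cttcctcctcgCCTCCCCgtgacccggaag
Rpl35a (chr16:33056467-33056496, plus strand): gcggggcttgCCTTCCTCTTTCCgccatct
Rps10 (chr17:27635230-27635259, minus strand): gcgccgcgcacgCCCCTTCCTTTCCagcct
Rpl38 (chr11:114668565-114668594, plus strand): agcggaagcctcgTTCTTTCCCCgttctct
Rps28 (chr17:33824548-33824577, minus strand): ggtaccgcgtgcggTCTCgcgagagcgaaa
Rpl22l1 (chr3:28805493-28805522, plus strand): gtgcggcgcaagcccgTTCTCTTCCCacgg
Rpl12 (chr2:32961697-32961726, plus strand): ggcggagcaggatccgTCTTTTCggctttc
A run of at least 8 bases was present in 21 of 63 members (33.3%), against 7.98% of all 27025 genes with such a window and 8.52% of 10332 tested genes that were not members. The letters CTTTCC, searched on the gene's strand only, stood in 15.9% of members and 1.67% of all genes, and such matches can lie within the pyrimidine run. Rpl35a, Rps10, Rpl38 and Rpl22l1 held a run of that length, and Rps3, Rpl31, Rps28 and Rpl12 did not. The annotated starts can lie some bases from those used in these cells, which limits what the windows show.

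Jag1 in the presence of TGFβ and IL-34 went with higher ribosomal protein mRNA. The members took 7.03% ± 0.431 (SD, n = 3) of the counts in TGFβ/IL-34/Jag1 and 5.40% ± 0.272 (SD, n = 2) in TGFβ/IL-34, a ratio of 1.30. The single libraries were at 7.49%, 6.63% and 6.96% with Jag1 and at 5.59% and 5.2% without. Per gene, the median log2 fold change was 0.47 and 78 of 82 members were above 0, while the median of all tested genes was −0.00. In 73 of 82 members all libraries with Jag1 were above all those without, as in 23.7% of all tested genes. In no member were they all below, as in 22.8% of genes.

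With limma on all 11 libraries none of the 82 members passed the threshold of 0.05 on the Benjamini-Hochberg adjusted p, where 6.6% of all genes did, and 3 members had an unadjusted p under 0.05, as 19% of all genes did. That fit estimates 1 spread per gene from all groups, and so includes the distance between the 2 libraries of TGFβ/IL-34/FICZ. With replicate 1 of that group left out, a choice made after the data were seen, the fold changes of this comparison stayed as they were and 52 of 82 members passed as higher (63.4%), against 8.08% of all genes. With replicate 2 of that group left out instead, 53 passed, against 8.15% of all genes. When only the 2 compared groups entered, 21 members passed as higher, against 5.42% of all genes. The 52 members that rose in the fit without TGFβ/IL-34/FICZ replicate 1 were 33 of 50 tested large subunit genes and 19 of 32 small subunit genes, with log2 fold changes from 0.38 to 1.12. The sample descriptions give an experiment code, and TGFβ/IL-34 held 2 of the 3 codes found in TGFβ/IL-34/Jag1. Within these 2 codes the shares were 5.59% without and 6.63% with Jag1, and 5.2% and 6.96%. The third code gave the highest Jag1 library (7.49%). With the code as a block the median log2 fold change was 0.30, with no member passing. The third code also held TGFβ/IL-34/FICZ replicate 1, so the blocked fit carries that library too. With the Jag1 library of the third code left out and no block, the median was 0.41.

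Rpl12, a protein at the base of the large subunit stalk, had the largest of these changes. Its level was low for a member, with a mean of 1053 per kilobase against 14671 for the median member. The reason for that low level was not tested. It was at 560.1 and 689.0 normalized counts in TGFβ/IL-34 and at 1739, 1055 and 1338 in TGFβ/IL-34/Jag1. The groups did not overlap, and the log2 fold change was 1.12 (SE 0.219, limma adjusted p = 0.0099 without TGFβ/IL-34/FICZ replicate 1, and 0.162 with all libraries). Rps15, a small subunit protein, was at 13120 and 12258 against 22581, 19072 and 20496 with Jag1 (log2 fold change 0.70, limma adjusted p = 0.0028 without that library). Rpl31, which lies near the exit of the peptide tunnel, was at 7414 and 6541 against 11727, 10307 and 11811 (0.69, limma adjusted p = 0.00348 without that library). The libraries of the 2 groups were separate for both genes. Rps10 followed with a log2 fold change of 0.66 (limma adjusted p = 0.00426 without that library). Rpl10, a late-joining large subunit protein, had the smallest p over all libraries (log2 fold change 0.49, limma adjusted p = 0.151), and its counts are shared with a copy described below.

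FICZ added to cultures with Jag1 went with lower ribosomal protein mRNA. The share was 6.01% ± 0.255 (SD, n = 3) in TGFβ/IL-34/Jag1/FICZ against 7.03% ± 0.431 (SD, n = 3) in TGFβ/IL-34/Jag1, a ratio of 0.856. The libraries with FICZ stood at 6.28%, 5.98% and 5.78%, all below the 3 without it. Per gene, the median log2 fold change was −0.30 and 76 of 82 members were below 0. In 57 of 82 members all libraries with FICZ were below all those without, as in 21.5% of all tested genes. In none were they all above, as in 23.6% of genes. With all 11 libraries no member passed (17.7% of all genes did) and 1 had an unadjusted p under 0.05, where 30.2% of all genes did. With flow cell as a block the median was −0.52 and 2 members passed, where 928 of 13095 genes fell. Flow cell HV3CTDSX5 held only replicate 1 of TGFβ/IL-34/FICZ and replicate 1 of TGFβ/IL-34/Jag1/FICZ. The library that stood apart therefore enters the blocked value. On flow cell HV5N5DSX5 alone the median was −0.33. Within the 3 experiment codes the share went from 7.49% to 6.28%, from 6.63% to 5.98% and from 6.96% to 5.78%. Without TGFβ/IL-34/FICZ replicate 1, 32 members fell (39.0%), against 14.1% of all genes, and with only the 2 compared groups 25 fell, against 12.7% of all genes. The 32 were 18 large and 14 small subunit genes, with log2 fold changes from −0.63 to −0.26.

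Rps3, a small subunit protein at the mRNA entry site that also has described roles in DNA repair, had the largest of these falls. It was at 39575, 35049 and 36945 normalized counts in TGFβ/IL-34/Jag1 and at 25762, 23070 and 23246 with FICZ. The latter lay near the 26982 and 23557 of TGFβ/IL-34. The log2 fold change was −0.63 (SE 0.103, limma adjusted p = 0.00184 without TGFβ/IL-34/FICZ replicate 1, and 0.0762 with all libraries). The gene lies on chromosome 7 at 99098784 to 99132945 (GRCm39). Rpl31 was at 7241, 7371 and 8235 with FICZ, below all 3 libraries with Jag1 alone (log2 fold change −0.57, limma adjusted p = 0.00252 without that library). Rpl35a was at 12767, 10496 and 11211 with Jag1 and at 8999, 8010 and 7568 with FICZ added (−0.49, limma adjusted p = 0.0091 without that library). The groups were again separate for these genes. Rps3a1 and Rps7, both of the small subunit, fell by 0.48 and 0.46 on the log2 scale (limma adjusted p = 0.00655 and 0.0093 without that library). These 2 comparisons share the libraries of TGFβ/IL-34/Jag1, so a high level there enters both.

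**Figure D3:**
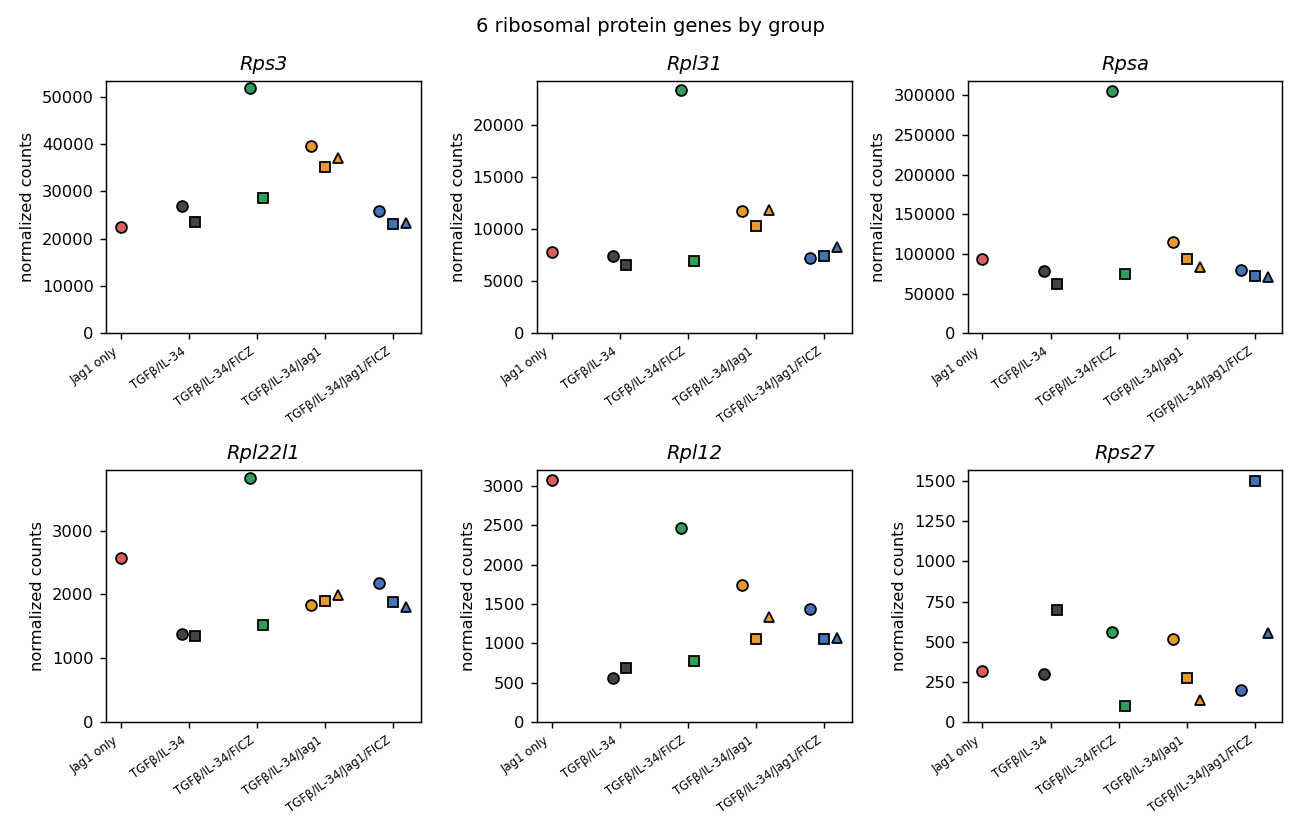
Normalized counts (vertical axes, from 0) of 6 ribosomal protein genes in the 5 groups, with 1 symbol per library and its shape giving the replicate. Rps3 and Rpl31 are higher in the 3 libraries of TGFβ/IL-34/Jag1 than in TGFβ/IL-34 and TGFβ/IL-34/Jag1/FICZ, Rpl12 and Rpl22l1 are low in TGFβ/IL-34, and Rps27 has no order by group.

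With Jag1 and FICZ together the members stood near TGFβ/IL-34. The share was 6.01% against 5.40%, a ratio of 1.11, and the median log2 fold change was 0.15, with 77 of 82 members above 0. The median was lower with batch terms. With flow cell as a block it was −0.05 with 26 members above 0, and with experiment code as a block 0.02 with 44 above 0. TGFβ/IL-34/FICZ replicate 1 shares its flow cell and its code with TGFβ/IL-34/Jag1/FICZ replicate 1, so it enters both blocked values. With no block and TGFβ/IL-34/Jag1/FICZ replicate 1 left out, the median was 0.14 with 71 above 0. Batch and the weight of the library that stood apart cannot be told apart here. All libraries with both were above those of TGFβ/IL-34 in 42 members, as in 28.8% of all genes. With all libraries no member passed (4.48% of genes did) and none had an unadjusted p under 0.05, where 17.8% of all genes did. Without TGFβ/IL-34/FICZ replicate 1, 4 passed as higher, all of the large subunit, against 7.97% of all genes. These were Rpl12 (log2 fold change 0.92), Rpl22l1 (0.52), Rpl24 (0.46) and Rpl27a (0.37), with limma adjusted p of 0.027, 0.0169, 0.0345 and 0.0394. With only these 2 groups in the fit 16 passed, close to the 14.4% of all genes. Rpl22l1, a copy of Rpl22 that can take its place in the ribosome, was at 1371 and 1344 in TGFβ/IL-34, at 1827, 1894 and 1994 with Jag1, and at 2173, 1877 and 1794 with both, so that both groups with Jag1 lay above it. It was at 1523 in TGFβ/IL-34/FICZ replicate 2 and at 3829 in replicate 1.

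FICZ without Jag1 cannot be read apart from the library that stood out. The share was 13.1% and 5.98% in TGFβ/IL-34/FICZ, and the log2 ratio to TGFβ/IL-34 was 0.72 with both libraries and 0.15 with replicate 2 alone. The median log2 fold change of the members went from 0.88 to 0.14 when replicate 1 was left out. In both fits no member passed, where 0.0229% and 0% of all genes did, and 54 members had an unadjusted p under 0.05 with all libraries (17.4% of all genes). Without replicate 1 that count was 2 (6.78% of all genes). With replicate 2 left out, so that replicate 1 stood alone, 76 of 82 passed as higher, against 21.6% of all genes. Rpl38, a large subunit protein linked to the translation of homeobox mRNAs, had the smallest p and was at 2361 and 1765 normalized counts in TGFβ/IL-34 and at 7690 and 2839 with FICZ (log2 fold change 1.19, limma adjusted p = 0.285). Rps28 was at 4251 and 3145 against 10601 and 4875, and Rpl39 at 4009 and 2897 against 8419 and 4570 (limma adjusted p = 0.285 for both). In each of these genes replicate 2 also stood above both libraries of TGFβ/IL-34, and replicate 1 was much further above them.

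The same library set the comparison of Jag1 in the presence of FICZ. The log2 ratio of the shares was −0.56 with all libraries and 0.01 without TGFβ/IL-34/FICZ replicate 1, and the median log2 fold change of the members was −0.70 and 0.04. No member passed in either fit, where 2.02% and 1.71% of all genes did, and Rps28 had the smallest p (log2 fold change −1.12, limma adjusted p = 0.0811, and −0.56 with an adjusted p of 0.215 without that library). In the interaction, the FICZ effect with Jag1 minus that without, the median was −1.18 with all libraries and −0.40 without TGFβ/IL-34/FICZ replicate 1. No member passed in either fit (1.39% and 1.16% of all genes did). An unadjusted p under 0.05 was found for 53 members and then for 39, where 18.8% and 15.5% of all genes had one. Rps3 had the smallest p in both, with −1.24 (limma adjusted p = 0.124) and −0.81 (limma adjusted p = 0.0841).

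**Figure D4:**
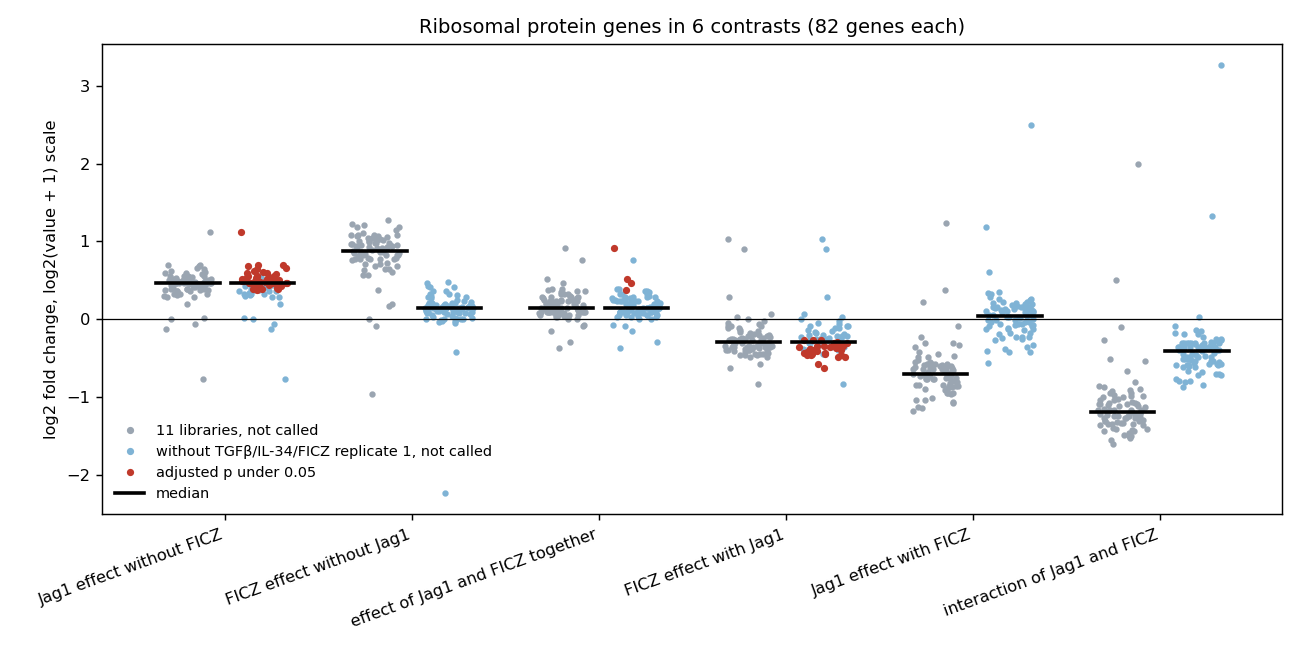
Log2 fold changes on the log2(value + 1) scale (vertical axis) of 82 ribosomal protein genes in 6 contrasts (horizontal axis), from all 11 libraries on the left of each pair and without TGFβ/IL-34/FICZ replicate 1 on the right, with red points for an adjusted p under 0.05 and a bar at the median. The medians of the contrasts without that group do not move (0.47 and −0.30 for Jag1 and for FICZ with Jag1), and red points appear only on the right.

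In the single culture with Jag1 only, which lacked TGFβ and IL-34, the share was 5.97%. There is no replicate of it and so no test. Of the 82 tested members, 41 were below the range of the 3 libraries of TGFβ/IL-34/Jag1 and 11 above it, where 36.7% and 37.9% of all genes were. Rpl12 was at 3078 normalized counts there, the highest of all libraries. Rpl7l1, a nucleolar relative of Rpl7, was at 1043 there and at 1809 to 2706 in the other 10. Rps27l, a p53-responsive copy of Rps27, was at 3926 there and at 1779 to 2654 in 9 others, with 5146 in TGFβ/IL-34/FICZ replicate 1.

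Set beside the cell cycle genes, the members stood the other way in 2 comparisons and the same way in others. The summed share of 50 genes of S phase and mitosis was lowest in TGFβ/IL-34/Jag1, at 0.0686% ± 0.0138 (SD, n = 3). It was highest with FICZ added to these, at 0.223% ± 0.00675 (SD, n = 3). TGFβ/IL-34 lay between, at 0.117% and 0.140%. Leaving aside TGFβ/IL-34/FICZ replicate 1, the ribosomal protein share was highest in the group where the cell cycle share was lowest. Mki67, a marker of dividing cells, was at 1283 and 1521 normalized counts in TGFβ/IL-34, at 231.9, 447.9 and 615.8 with Jag1 and at 2979, 2802 and 3049 with Jag1 and FICZ, with no overlap between the 3 groups.

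By limma over all 11 libraries, Jag1 went with a fall in 16 of 24 mitosis genes and 5 of 26 S phase genes (median log2 fold changes −1.35 and −0.84), where 3.96% of all genes fell, while the median of the ribosomal protein genes was 0.47 with none called. FICZ with Jag1 went with a rise in 24 of 24 mitosis genes and 20 of 26 S phase genes (2.35 and 1.41), where 10.9% of all genes rose, while the median of the ribosomal protein genes was −0.30, again with none called. In the fit without TGFβ/IL-34/FICZ replicate 1 the cell cycle counts were 19 and 10 lower with Jag1 and 1 S phase gene higher, and 24 and 23 higher for FICZ with Jag1. With Jag1 and FICZ together against neither, both kinds of gene were on the same side. There 8 mitosis and 3 S phase genes rose (15 and 9 without that library), where 3.12% of all genes did (7.97% without it), and the ribosomal protein share was 6.01% against 5.40%. TGFβ/IL-34/FICZ replicate 2 was likewise above both libraries of TGFβ/IL-34 in both measures, with 5.98% and 0.188%. In TGFβ/IL-34/FICZ replicate 1 the cell cycle share was 0.135%, within the range of TGFβ/IL-34. In Jag1 only it was 0.0839%. The 2 comparisons share the TGFβ/IL-34/Jag1 libraries, and no test was made of the members against the cell cycle genes.

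**Figure D5:**
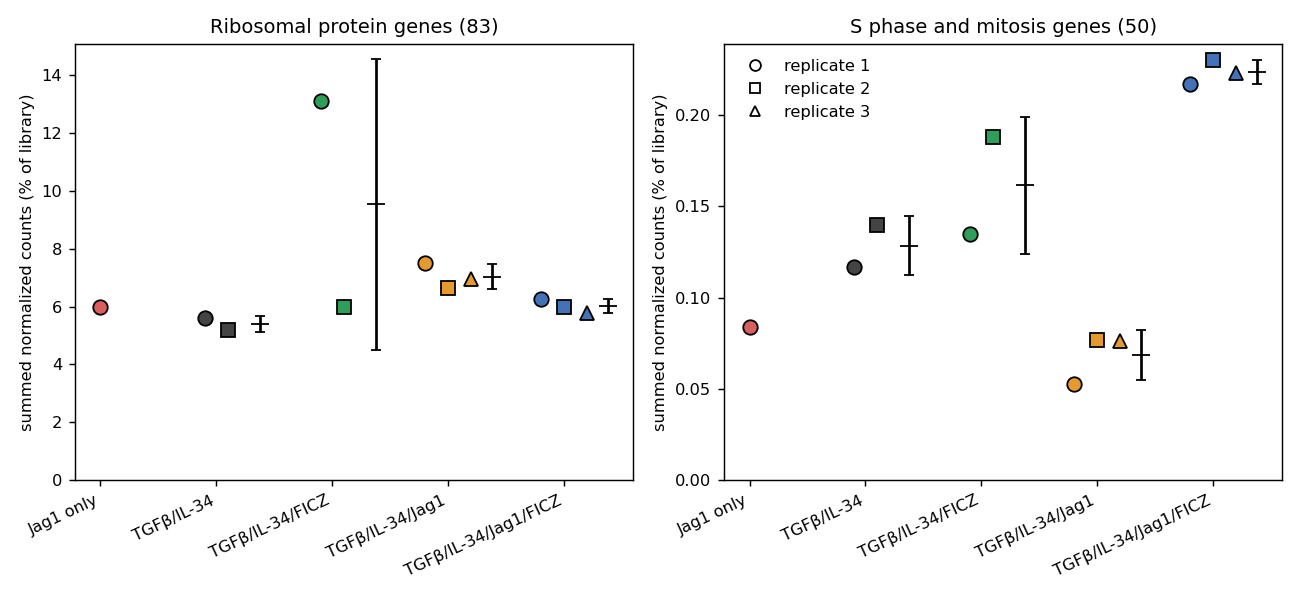
Summed normalized counts of the 83 ribosomal protein genes (left) and of 50 S phase and mitosis genes (right) as a percent of the library (vertical axes, from 0) in the 5 groups, with 1 symbol per library and the group mean with its SD beside them where n is at least 2. The 3 libraries of TGFβ/IL-34/Jag1 are at 6.63% to 7.49% on the left and at 0.0526% to 0.0769% on the right, where TGFβ/IL-34/Jag1/FICZ is at 0.217% to 0.230%.

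By role, the 3 stalk proteins and Rpsa had a median log2 fold change of 0.44 with Jag1 and −0.33 for FICZ with Jag1. Without TGFβ/IL-34/FICZ replicate 1, Rplp1 rose and fell in the 2 comparisons (0.62 and −0.35, limma adjusted p = 0.00433 and 0.0172), and the other 3 did not pass in either. Rplp1, an acidic protein that recruits elongation factors, was at 21568 and 22363 in TGFβ/IL-34, at 35077, 32174 and 34105 with Jag1 and at 28144, 25599 and 25607 with Jag1 and FICZ, so that its 3 groups were separate. Of 12 members with described roles outside the ribosome, 7 rose with Jag1 and 7 fell for FICZ with Jag1 without that library, and none passed with it. Among all members 63.4% rose and 39.0% fell in that fit, and among all genes 8.08% and 14.1%. Rps7 and Rpl23, which can bind Mdm2, were among them in both comparisons (0.56 and 0.54, then −0.46 and −0.45).

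Set per kilobase of transcript, the related copies stood below the genes they resemble. Rpl3l, known from muscle, was at 6.2 to 21.5 normalized counts and at most 0.068% of Rpl3 per kilobase. Rpl39l, known from the testis, was at 4.53 to 23.2 and at most 1.47% of Rpl39 per kilobase. On the same scale Rpl7l1 came to 4.17% to 12.8% of Rpl7 and Rpl22l1 to 22.7% to 38.5% of Rpl22, higher than the muscle and testis copies in every library. Rps27l was not set against Rps27, whose counts are uncertain for the reason given next. No copy passed with all libraries, and without TGFβ/IL-34/FICZ replicate 1 Rpl22l1 was the only 1 of the 5 tested to pass, with Jag1 (0.49, limma adjusted p = 0.0175) and with both as given above.

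The counts of some members are uncertain because other genes of the table hold nearly the same sequence. For 24 members a transcript of another listed gene matched over at least 300 bases with at least 95% identity, and for 5 of them that gene held 10% or more of the member's counts. Rpl10 shares 737 bases at 100% identity with Rpl10-ps3, which averaged 30226 normalized counts against 14637 for Rpl10. Rps27 shares 345 bases at 100% with Rps27rt, at 9604 against 468.8, so reads of the 2 genes cannot be told apart there. Rpl36 and Rpl22l1 were also among the 5, with matches in transcripts of Sumf1 and Orc5.

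Summed with their copies these genes resembled the other members. Rpl10 with Rpl10-ps3 was at 34847 and 32857 normalized counts in TGFβ/IL-34, at 52044, 44199 and 50412 with Jag1 and at 39724, 36387 and 37954 with Jag1 and FICZ, and it was at 84742 in TGFβ/IL-34/FICZ replicate 1. Rps27 with Rps27rt was at 7241 and 5423, then at 11042, 8749 and 7562, then at 9214, 7961 and 6725, with 27277 in that library. The groups of the first sum were separate. Rps27 alone ran from 96.3 to 1501 with no order by group, and Rpl10 alone was at 11479 in TGFβ/IL-34/FICZ replicate 1, below all other libraries, while its copy was not.

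Other genes of translation were divided. Of 17 further TOP mRNAs, which encode elongation factors, initiation factors and other abundant proteins, the median log2 fold change was 0.39 with Jag1 and −0.26 for FICZ with Jag1. With all libraries none passed with Jag1, and for FICZ with Jag1 2 passed as higher, near the 10.9% of all genes, the RNA-binding protein gene Hnrnpa1 (0.85, limma adjusted p = 0.0024) and the histone chaperone gene Nap1l1 (0.96, limma adjusted p = 0.02). Without TGFβ/IL-34/FICZ replicate 1, 8 of 17 rose with Jag1, against 8.08% of all genes. For FICZ with Jag1 6 fell and 2 rose, where 14.1% of all genes fell and 17.3% rose. Eif3e, a subunit of initiation factor 3, was at 4057 and 4048 normalized counts in TGFβ/IL-34, at 7553, 5730 and 7354 with Jag1 and at 4849, 4400 and 4899 with both, and its groups were separate. Its log2 fold changes were 0.75 and −0.54 (limma adjusted p = 0.00508 and 0.00713 without that library). Of 24 other initiation factors, only Eif4a2, an RNA helicase, rose with Jag1 over all libraries (0.69, limma adjusted p = 0.0325), where 2.64% of all genes rose. Without TGFβ/IL-34/FICZ replicate 1, 4 of the 24 rose with Jag1, against 8.08% of all genes. In that fit 1 rose and 2 fell for FICZ with Jag1, where 17.3% of all genes rose and 14.1% fell. Eif4a2 was among those that fell (−0.42).

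The medians of ribosome assembly genes lay on the other side of 0 from those of the members in both comparisons, while the shares called were nearer to those of all genes. Of 42 such genes, 6 rose and 2 fell for FICZ with Jag1 over all libraries, with a median log2 fold change of 0.27 where that of the ribosomal protein genes was −0.30. Of all genes 10.9% rose and 6.71% fell. With Jag1 1 fell and none rose (median −0.25, against 0.47), where 3.96% of all genes fell and 2.64% rose. In the fit without TGFβ/IL-34/FICZ replicate 1, 10 rose and 2 fell for FICZ with Jag1 (17.3% and 14.1% of all genes), and 1 rose and 2 fell with Jag1 (8.08% and 8.51% of all genes). The difference between these genes and the ribosomal protein genes was not tested. Nop56, a core protein of the particles that methylate rRNA, was at 1274 and 1467 normalized counts in TGFβ/IL-34, at 682.0, 913.8 and 711.6 with Jag1 and at 1725, 1999 and 1605 with both. These 3 groups were separate, and over all 11 libraries Nop56 was the gene that passed in both comparisons (−0.84, limma adjusted p = 0.0238, and 1.21, adjusted p = 0.00077). Without TGFβ/IL-34/FICZ replicate 1, Nop10 also passed in both, on the side of the ribosomal protein genes (0.54, limma adjusted p = 0.0318, and −0.64, adjusted p = 0.00479). Over all libraries Nop58, the partner of Nop56, and Dkc1, the enzyme that makes pseudouridine in rRNA, rose for FICZ with Jag1 (1.12 and 1.24, limma adjusted p = 0.0164 and 0.0297), and Nop10 and Nop16 fell (−0.64 and −0.65, adjusted p = 0.0228 and 0.0357). Nop10 is a short partner of Dkc1 and was at 747.5 to 897.8 with Jag1 and at 510.6 to 579.8 with both.

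Of 78 genes of mitochondrial ribosomal proteins, 1 rose with Jag1 and 1 fell for FICZ with Jag1 over all libraries, and the medians were 0.03 and −0.08. The gene was Mrps27 in both, at 601.4 and 592.7 normalized counts in TGFβ/IL-34, 1590, 1079 and 1285 with Jag1 and 631.1, 617.1 and 720.5 with both (1.12, limma adjusted p = 0.0232, and −0.99, adjusted p = 0.0109). When TGFβ/IL-34/FICZ replicate 1 was left out, 4 rose with Jag1 (8.08% of all genes), and 6 fell and 1 rose for FICZ with Jag1 (14.1% and 17.3% of all genes). Of 17 genes that control translation and growth, 3 rose for FICZ with Jag1 over all libraries (10.9% of all genes), and 6 rose and 2 fell without TGFβ/IL-34/FICZ replicate 1 (17.3% and 14.1% of all genes). Myc, which drives transcription of ribosome assembly and ribosomal protein genes, was among the 3. It was at 714.8 and 1092 in TGFβ/IL-34, at 166.4, 669.2 and 469.9 with Jag1 and at 1310, 1517 and 1574 with both (log2 fold change 1.96, limma adjusted p = 0.0143). Ddit4, an inhibitor of mTOR signalling, rose too, from 354.9 to 664.4 with Jag1 to 1647 to 1875 with both (1.72, limma adjusted p = 0.00303), and Mycn was the third, at 41.6 to 101 with both.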

How the data were processed

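The deposited values are a normalized signal per gene (normalized counts) that the authors made with salmon (Ensembl, GRCm39), tximport and DESeq2. Versions are not given in the sources used here. The 13095 genes that reached 10 in 2 samples or more entered the fit on the log2(value + 1) scale. It was made with limma 3.58.1 (R 4.3.3, a trended eBayes fit) over all 11 samples, with a mean for each of the groups and no further term, leaving 6 residual degrees of freedom. Tests of the 6 contrasts were two-sided, with Benjamini-Hochberg adjustment over all tested genes per contrast and a threshold of 0.05. The script was tested on simulated data. A step of 0.895 to 1.15 normalized counts was worth 1 read, so that the libraries held about 20.6 to 24.2 M reads, and counting error was small for most members. Members and lists were chosen with earlier results of these data known, so no test over a list was made. Named genes were, per contrast, up to 5 members in each direction with the largest change among those that passed or the 3 with the smallest p, the 3 most and least variable, the stalk, Rpsa and related copies, and up to 3 genes per list and direction. Rpl10-ps3, Rps27rt and the other matching genes were named after their values were seen. Transcript lengths and coordinates came from GENCODE vM39 (GRCm39), in which all 83 members were found, and matches between transcripts from blastn 2.17.0. Promoter windows came from RefSeq (GRCm38.p6), and no coordinates were converted. Replicates 1, 2 and 3 of the groups with Jag1, with or without FICZ, carry the same experiment codes, and their deviations correlated at 0.153, 0.122 and 0.166 across genes. These numbers were taken as pairs only in the alternative fit with a replicate block. The main fit and its p-values use no pairs. In TGFβ/IL-34 the replicate numbers do not follow the codes. The single values of 2 members are not reported here, although these members are in the counts. Experiment codes and flow cells are those in the sample descriptions. Alternatives are listed in the closing section.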

Additional observations from a re-analysis of the deposited data

Results flagged for a closer look

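The effect of FICZ on the ribosomal protein share differed in sign between cultures without and with Jag1: both libraries of TGFβ/IL-34/FICZ lay above both of TGFβ/IL-34, and all 3 of TGFβ/IL-34/Jag1/FICZ lay below all 3 of TGFβ/IL-34/Jag1. The log2 ratio with Jag1 minus that without was −0.94, of which most came from TGFβ/IL-34/FICZ replicate 1 (log2 ratio without Jag1 0.72, and 0.15 with replicate 2 alone). The difference between the shares was not tested. Per gene, the interaction in limma called none of the 82 members, and 53 had an unadjusted p under 0.05 (18.8% of all genes), or 39 without TGFβ/IL-34/FICZ replicate 1 (15.5% of all genes).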

How the results depend on the processing

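The count of members that passed was 0 in all 6 contrasts with all 11 libraries. With only the groups of a contrast it was 21 for Jag1, 16 for Jag1 and FICZ together and 25 for FICZ with Jag1. In the same direction 5.42%, 14.4% and 12.7% of all genes passed. With array weights it was 34, 6 and 11, where 1232, 2004 and 1824 of 13095 genes passed, so only the first stood above the rate of all genes. With flow cell as a block it was 1 for Jag1 (394 of 13095 genes) and 2 for FICZ with Jag1 (928). There the median log2 fold change went from −0.30 to −0.52 for FICZ with Jag1 and from 0.15 to −0.05 for both together. With experiment code as a block the counts were 0, and the medians were 0.30 for Jag1 and 0.02 for both together. Both blocks carry TGFβ/IL-34/FICZ replicate 1. For FICZ with Jag1, quantile normalization gave 3 (1105 of 13095 genes fell) and scaling to the same total 1 (700 of 13080). Only the libraries of flow cell HV5N5DSX5, an alternative added after the data were seen, gave 44 for Jag1 and 20 for FICZ with Jag1. Leaving out 1 library in turn, including libraries of other groups, the count ran from 0 to 53 for Jag1, 0 to 76 for FICZ, 0 to 4 for both together, 0 to 32 for FICZ with Jag1, 0 to 76 for Jag1 with FICZ and 0 to 76 for the interaction. Leaving out either library of TGFβ/IL-34/FICZ gave these upper or near-upper counts, 52 or 53 for Jag1, 4 or 4 for both and 32 or 32 for FICZ with Jag1, and the 76 came without replicate 2. With the replicate block, which pairs the groups of FICZ with Jag1, the count was 0, as in the fit without it, and so it was in the other contrasts. The log2 ratio of the shares ran from 0.15 to 1.28 for FICZ and from −1.13 to 0.01 for Jag1 with FICZ when 1 library was left out, and was 0.15 and −0.02 on that flow cell alone. For Jag1 with FICZ, Rpl22l1 turned to 0.35 without TGFβ/IL-34/FICZ replicate 1 and to 0.27 on that flow cell, from −0.98 without replicate 2, and Rps27 to −0.03 without replicate 2 from 2.50 without replicate 1. The cause was not tested. Of the other values of named members, 680 kept their direction and side of the threshold and 99 newly passed it. Scaling to the same total moved the median of all genes to −0.20 for FICZ and 0.21 for Jag1 with FICZ. With so few libraries, 1 that stands apart sets the spread of every test. The counts from flow cell HV5N5DSX5 and from leaving out libraries are given here without the share of all genes, so they show only how the calls move.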
